A study of Mus musculus with 2 samples.

Results

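The genes described are 10 transcriptional regulators linked to stem-like and exhausted states of T cells: Tox, Tox2, Tcf7, Lef1, Id2, Id3, Eomes, Bach2, Prdm1 and Satb1. They were chosen by name, with earlier results of these data known, and are 10 of the 32285 genes counted. All 10 had at least 1 count in each library. Their transcripts were counted cell by cell in tumours of MB49, a bladder carcinoma line grown in mice, taken on day 14 from C57BL/6J mice of 12 to 14 weeks. There was 1 library of female and 1 library of male mice, with no other treatment or allele named and no number of mice given. With 1 library per sex, no value has a replicate check, and every interval below is a 95% interval that covers counting error only.

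The levels were followed through 6 classes of cells, each cut from transcripts of the same cells. Cd8 cells had at least 2 unique molecular identifiers (UMIs) of Cd8a and Cd8b1 together and none of Foxp3, and were split by how many of the 3 inhibitory receptor genes Pdcd1, Havcr2 and Lag3 were detected. The female library held 305, 315, 537 and 1088 Cd8 cells with 0, 1, 2 and 3 receptors, and the male library held 403, 369, 416 and 752. Treg cells, with a Foxp3 UMI and no Cd8 UMI, numbered 233 in female and 345 in male tumours. Other Cd4 cells, with a Cd4 UMI and no Foxp3 or Cd8 UMI, numbered 248 and 231. The receptor genes, Foxp3, Cd4, Cd8a and Cd8b1 set the classes and are not results.

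The labels describe a sort for viable CD4+ T cells, whereas most classed cells were Cd8 cells by their transcripts. The female library held 55880364 UMIs in 3658 barcodes and the male library 50946624 UMIs in 3708 barcodes, of which 3468 and 3519 were kept as cells, and 12 kept barcodes occurred in both libraries. All 4 T cell markers (Cd3e, Cd3d, Cd3g and Trac) were detected in each of the 12 pools of a class and a library, at 2233 to 3792 counts per 1000000 UMIs (CPM) in sum. No class was given to 742 female and 1003 male cells, among them 396 and 491 with both Foxp3 and Cd8 UMIs and a median of 33232 and 33093 UMIs. Depth and cycling were higher with 3 than with 0 receptors: the median was 15821 UMIs with 3 and 6287 with 0 receptors in the female library, and 15250 and 6382 in the male library. Cells with at least 2 UMIs of Mki67 and Top2a were 34.7% and 2.30% of those female classes, and 32.6% and 3.23% of the male ones.

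TCF-1, encoded by Tcf7, and its relative Lef1 maintain naive and stem-like T cells that can renew themselves, while Bach2 and Satb1 restrain effector programmes and organise chromatin in the same cells. Tox and Tox2 encode HMG-box factors that establish the exhausted state under lasting antigen, and Eomes is a T-box factor of memory and exhausted Cd8 cells. Id2 and Id3 bind E proteins and keep them from their E-box sites, with Id3 known from stem-like and Id2 from effector cells. Prdm1 encodes Blimp-1, a repressor of effector and terminally differentiated cells, which Bach2 represses in lymphocytes and which Treg cells also use.

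The promoters of the members that carry the contrasts below are shown, Prdm1 against Bach2 and Id2 against Id3, each from 250 bases before to 50 bases after the RefSeq start (GRCm38.p6). They lie at chr10:44458699-44458998 (minus strand, Prdm1), chr4:32417185-32417484 (plus, Bach2), chr12:25096043-25096342 (minus, Id2) and chr4:136143572-136143871 (plus, Id3). Capitals mark matches on either strand to CANNTG (the E-box), CTTTGA (TCF/LEF) or TGANTCA (BACH or AP-1). No match overlaps another.
Prdm1: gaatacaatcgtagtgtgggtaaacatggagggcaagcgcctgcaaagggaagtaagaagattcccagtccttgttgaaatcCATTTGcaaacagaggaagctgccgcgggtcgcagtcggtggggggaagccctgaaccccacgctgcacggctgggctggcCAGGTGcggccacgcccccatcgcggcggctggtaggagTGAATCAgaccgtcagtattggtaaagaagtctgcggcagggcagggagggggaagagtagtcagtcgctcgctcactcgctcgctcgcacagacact
Bach2: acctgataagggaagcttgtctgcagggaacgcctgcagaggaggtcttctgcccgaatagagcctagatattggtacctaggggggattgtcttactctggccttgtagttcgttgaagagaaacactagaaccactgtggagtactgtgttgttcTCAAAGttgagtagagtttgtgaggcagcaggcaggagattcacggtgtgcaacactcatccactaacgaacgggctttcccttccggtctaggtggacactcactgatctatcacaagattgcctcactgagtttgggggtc
Id2: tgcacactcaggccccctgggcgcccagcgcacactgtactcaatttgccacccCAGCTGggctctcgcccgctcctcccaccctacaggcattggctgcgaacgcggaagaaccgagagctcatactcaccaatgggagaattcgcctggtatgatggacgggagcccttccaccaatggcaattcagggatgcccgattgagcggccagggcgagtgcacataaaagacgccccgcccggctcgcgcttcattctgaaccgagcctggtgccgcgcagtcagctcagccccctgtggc
Id3: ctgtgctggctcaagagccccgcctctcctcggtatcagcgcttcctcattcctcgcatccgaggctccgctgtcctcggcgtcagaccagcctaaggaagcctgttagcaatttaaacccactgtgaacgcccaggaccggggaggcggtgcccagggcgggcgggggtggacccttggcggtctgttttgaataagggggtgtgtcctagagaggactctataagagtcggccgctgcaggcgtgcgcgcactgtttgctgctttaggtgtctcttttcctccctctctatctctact
The Prdm1 window holds an E-box at -168 and at -87 and the BACH or AP-1 letters TGAATCA at -48, counted from the start. In the Bach2 window the TCF/LEF letters lie at -93 on the reverse strand, the Id2 window has an E-box at -196, and the Id3 window has none of these motifs. Of 32851 promoters of this length in the table, 72.3% hold an E-box, 16.0% the TCF/LEF letters and 7.81% the BACH or AP-1 letters, so each match is a description and not a site. A promoter was listed for 9 of the 10 members, and the 4 starts shown lie inside the gene spans of the annotation, not at their ends. The genes themselves lie on chromosomes 4 (Tox, Id3 and Bach2), 2 (Tox2), 11 (Tcf7), 3 (Lef1), 12 (Id2), 9 (Eomes), 10 (Prdm1) and 17 (Satb1).

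In Cd8 cells, the stem-like and naive factors Tcf7, Lef1, Id3, Bach2 and Satb1 were lower with 3 than with 0 detected receptors in both libraries, and Tox, Id2 and Prdm1 were higher. A change is counted, and called a rise or a fall, only where CPM differed by at least 1.5-fold in the same direction in both libraries. By this rule 3 of the 9 measured members rose, beside 19.6% of 7696 measured genes, and 5 fell, beside 9.86%. Tox2 was too low to be measured, and Eomes differed between the libraries. The median log2 ratio of 3 over 0 receptors was -1.38 for the female and -1.34 for the male library over the 9 members, and 0.12 and 0.20 over all measured genes. Per cell rather than in CPM, the median over all genes was 1.84 and 1.73, cells with 3 receptors holding more UMIs, and the falls of Satb1 in both libraries and of Bach2 in the female library turned positive on that scale. Per cell 4 members rose, Eomes joining Tox, Id2 and Prdm1, beside 92.8% of all measured genes, and 3 fell, Tcf7, Lef1 and Id3, beside 0.845%.

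**Figure D1:**
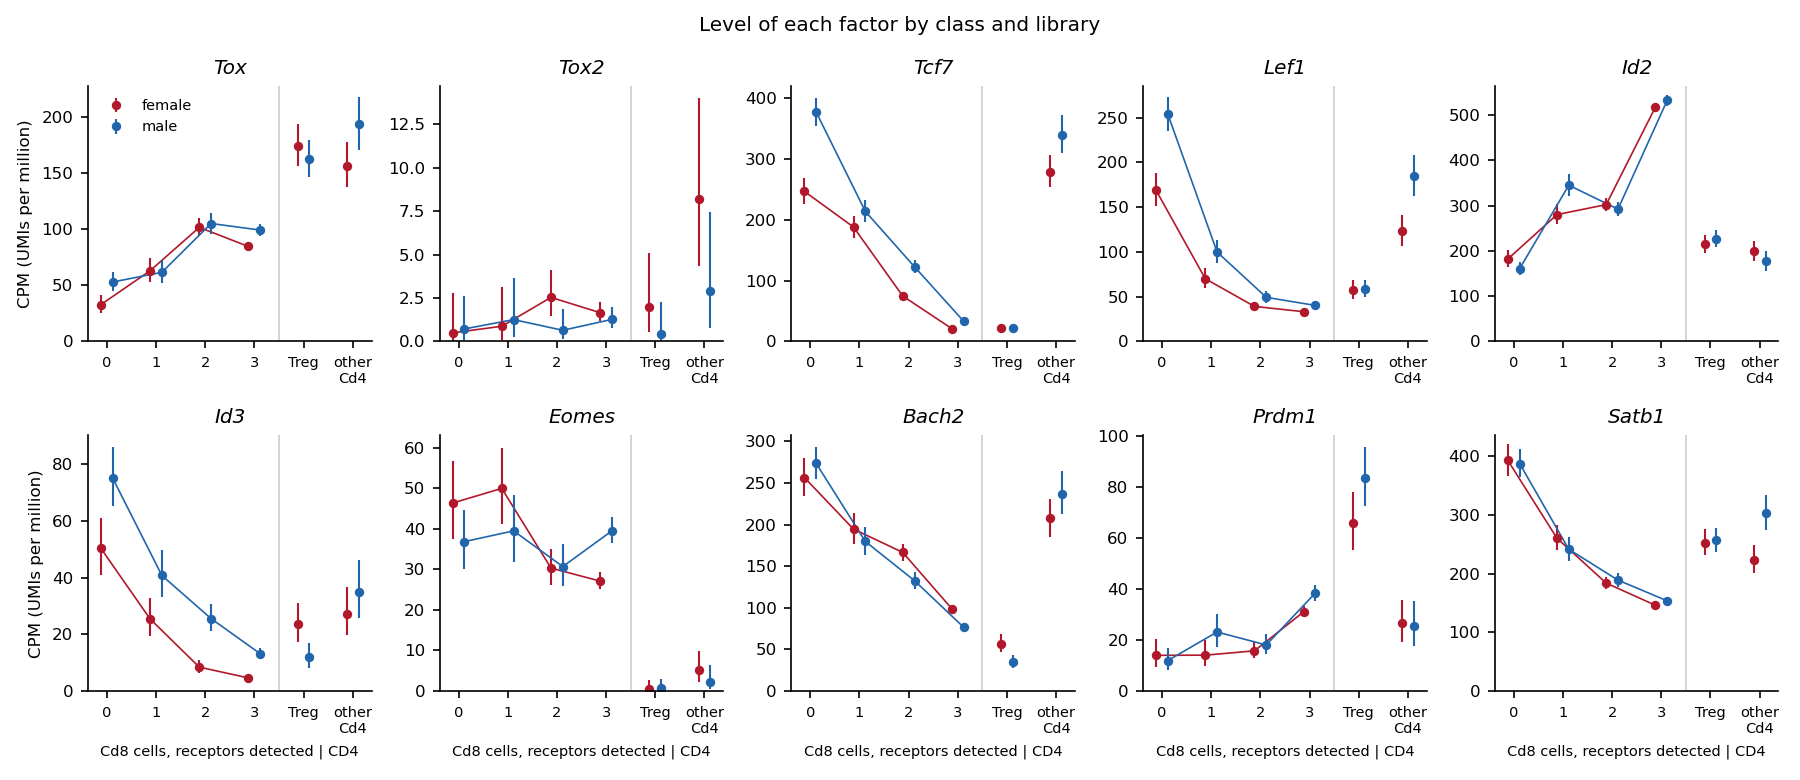
Level of each factor (CPM, y axis) in Cd8 cells with 0, 1, 2 and 3 detected receptors, Treg cells and other Cd4 cells (x axis), for the female library (red) and the male library (blue); bars are 95% counting intervals. Tcf7, Lef1, Id3, Bach2 and Satb1 fall along the receptor series in CPM, although per cell Satb1 in both libraries and Bach2 in the female library are higher with 3 than with 0 receptors, and Tcf7 reaches 21.0 CPM in female and 33.2 CPM in male cells with 3 receptors.

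Tcf7, which encodes TCF-1, was lower at each further receptor. It stood at 247, 188, 74.7 and 21.0 CPM in female cells with 0, 1, 2 and 3 receptors, and at 377, 214, 123 and 33.2 CPM in male cells. The log2 ratio of 3 over 0 receptors was -3.55 (-3.74 to -3.37) for the female and -3.50 (-3.66 to -3.35) for the male library. Per cell, Tcf7 was also lower, at 0.45 UMIs with 3 and 1.62 with 0 receptors in the female library and 0.66 and 2.59 in the male library. The counting intervals of the 4 receptor numbers did not overlap in either library.

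Lef1, the close relative of Tcf7, fell from 0 to 1 and from 1 to 2 receptors, and less from 2 to 3. Its level was 169, 70.1, 39.2 and 33.3 CPM along the female series and 254, 100.0, 49.3 and 40.2 CPM along the male series. The step to 1 receptor was -1.27 (-1.55 to -0.99) and -1.34 (-1.56 to -1.13) on the log2 scale. The step from 1 to 2 receptors was -0.84 (-1.13 to -0.54) and -1.02 (-1.29 to -0.75), and that from 2 to 3 only -0.24 and -0.29. From 0 to 3 receptors the ratio was -2.34 (-2.53 to -2.16) for the female and -2.66 (-2.82 to -2.50) for the male library.

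Id3, the E protein inhibitor of stem-like cells, was sparse and also fell. It stood at 50.3, 25.4, 8.41 and 4.59 CPM along the female series and at 75.1, 40.7, 25.5 and 13.1 CPM along the male series. The log2 ratio of 3 over 0 receptors was -3.45 (-3.86 to -3.05) for the female and -2.52 (-2.81 to -2.23) for the male library. A single cell held 22.7% of the 119 Id3 UMIs of male cells with 2 receptors. Cells with at least 5 UMIs of Krt8 and Krt18 and none of the T cell markers, 31 female and 23 male cells with a median of 47553 and 40598 UMIs, had Id3 at 47.0 and 65.5 CPM. Of the other members, those cells had 8 and 7 UMIs of Id2, 0 and 3 of Tcf7 and none of the remaining 7, for which 3 counts would be 2.10 and 3.02 CPM.

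Bach2, the repressor that restrains effector differentiation, declined in smaller steps. Its level was 257, 195, 167 and 98.8 CPM along the female series and 274, 180, 133 and 76.5 CPM along the male series. From 0 to 3 receptors the log2 ratio was -1.38 (-1.52 to -1.24) for the female and -1.84 (-1.97 to -1.70) for the male library, whereas per cell it was 0.34 and -0.31. Bach2 thus had 2.13 UMIs per female cell with 3 receptors, against 1.69 with 0, and 1.52 against 1.88 in male cells.

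Satb1, a chromatin organiser, was at 393, 260, 184 and 146 CPM along the female series and at 388, 242, 189 and 154 CPM along the male series. Both libraries gave nearly the same 4 values. The ratio of 3 over 0 receptors was -1.43 (-1.54 to -1.31) for the female and -1.34 (-1.44 to -1.23) for the male library in CPM, and 0.29 and 0.20 per cell. Depth was therefore held closer by splitting Cd8 cells of each library into 3 equal groups by UMIs. In the shallowest group, with a median of 6080 UMIs for 3 and 5462 for 0 receptors for the female and 4908.5 and 4973 for the male library, Satb1 had 0.967 UMIs per cell with 3 receptors against 1.90 with 0 in the female library and 1.08 against 1.86 in the male library. Bach2 had 0.975 against 1.30 and 0.679 against 1.28 UMIs per cell in the same groups. There the CPM ratio of Bach2 was -0.55 in the female library, short of 1.5-fold, and -0.88 in the male one, and that of Satb1 -1.12 and -0.73.

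Within each of these 3 depth groups the CPM of Tcf7, Lef1, Id3, Bach2 and Satb1 was lower, and that of Tox, Id2 and Prdm1 higher, with 3 than with 0 receptors in both libraries. The deepest group held only 4 female cells with 0 receptors. Beside cycling, barcodes with a UMI of a marker of macrophages, B cells, fibroblasts, epithelium or neutrophils were 8.18% of female and 7.98% of male cells with 3 receptors, against 2.30% and 1.49% with 0. Without the cycling cells Tcf7 gave -3.53 and -3.38, Bach2 -1.24 and -1.74, Tox 1.38 and 0.75, and Prdm1 1.29 and 1.80 for the female and male libraries. Without the cells with another type's markers Tcf7 gave -3.71 and -3.60, Bach2 -1.41 and -1.89, Tox 1.41 and 0.87, and Prdm1 1.26 and 1.70.

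Tox, the factor that sets up exhaustion, rose and reached its highest Cd8 level in CPM at 2 receptors, in classes set without thinning. It stood at 32.9, 63.1, 102 and 84.8 CPM along the female series and at 53.1, 61.7, 105 and 99.5 CPM along the male series. The log2 ratio of 3 over 0 receptors was 1.37 (1.01 to 1.74) in the female and 0.91 (0.66 to 1.16) for the male library. The step from 2 to 3 receptors was -0.26 (-0.39 to -0.13) for the female and -0.08 (-0.23 to 0.07) for the male library, so the male values did not differ beyond counting error. With each cell thinned to 3730 UMIs before the classes were set, the female series was 31.9, 85.4, 99.5 and 90.5 CPM. The male series was then 58.9, 95.8, 101 and 106 CPM. Per cell Tox was highest with 3 receptors, at 1.83 UMIs against 1.20 with 2 in the female and 1.98 against 1.18 in the male library. Its relative Tox2 had 1 to 39 UMIs in any pool and at most 8.20 CPM, in female other Cd4 cells, and no ratio of it was read.

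Eomes, the T-box factor, showed no common direction in CPM. Female cells had 46.3, 50.0, 30.3 and 27.1 CPM along the receptor series, and male cells 36.8, 39.5, 30.7 and 39.5 CPM. The ratio of 3 over 0 receptors was -0.77 (-1.09 to -0.44) in the female library, where it was 0.94 per cell and -0.42 without cycling cells, and 0.10 (-0.20 to 0.42) in the male library, where it was 1.63 per cell.

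Id2, the E protein inhibitor of effector cells, rose in a first and a last step with less change between, in classes set without thinning. Female cells had 182, 280, 302 and 517 CPM along the series and male cells 161, 345, 292 and 532 CPM. The ratio of 3 over 0 receptors was 1.51 (1.36 to 1.66) and 1.73 (1.59 to 1.87). Per cell this was 11.2 UMIs with 3 receptors and 1.20 with 0 in the female library, and 10.6 with 3 receptors in the male library. With each cell thinned to 3730 UMIs before the classes were set, the female series was 225, 348, 475 and 555 CPM. The male series was then 204, 398, 472 and 589 CPM, and the last step was short of 1.5-fold in both libraries.

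Prdm1, which encodes Blimp-1, passed 1.5-fold in both libraries only at the last step, and in the male library at the first step as well. It was at 14.0, 14.0, 15.7 and 31.0 CPM along the female series and at 11.9, 23.1, 18.0 and 38.4 CPM along the male series. The step from 0 to 1 receptor was 0.01 (-0.77 to 0.79) for the female and 0.96 (0.31 to 1.62) for the male library. That from 2 to 3 receptors was 0.98 (0.68 to 1.30) and 1.09 (0.76 to 1.44), and the whole ratio 1.15 (0.61 to 1.75) and 1.69 (1.18 to 2.24). With each cell thinned to 3730 UMIs before the classes were set, the last step went from 22.2 to 30.9 CPM in female cells. This was short of 1.5-fold, and male cells went from 25.9 to 44.6 CPM.

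Read step by step, different members moved at different receptor numbers when the classes were set without thinning. From 0 to 1 receptor Id2 rose, beside 4.47% of 7344 measured genes, and Lef1, Id3 and Satb1 fell, beside 1.39%. Between 1 and 2 receptors Tox rose, beside 4.70% of 7589 genes, and Tcf7, Lef1 and Id3 fell, beside 4.22%. At the last step Id2 and Prdm1 rose, beside 1.45% of 7571 genes, and Tcf7 and Bach2 fell, beside 1.95%. Neighbouring steps share a class, so they are not independent of each other. Several steps changed place when each cell was thinned to 3730 UMIs before the classes were set. From 0 to 1 receptor Tcf7 then went from 207 to 100 CPM in female and from 332 to 141 CPM in male cells. Tox also passed 1.5-fold at that step, and no longer from 1 to 2 receptors. Satb1 at that first step went from 339 to 230 CPM in male cells, short of 1.5-fold. Lef1 from 1 to 2 receptors went from 58.1 to 39.2 CPM in female cells, also short of it. From 2 to 3 receptors Bach2 went from 141 to 94.6 and from 96.0 to 73.7 CPM. Bach2 and Id2 were there short of 1.5-fold in both libraries, and Prdm1 in the female library.

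**Figure D2:**
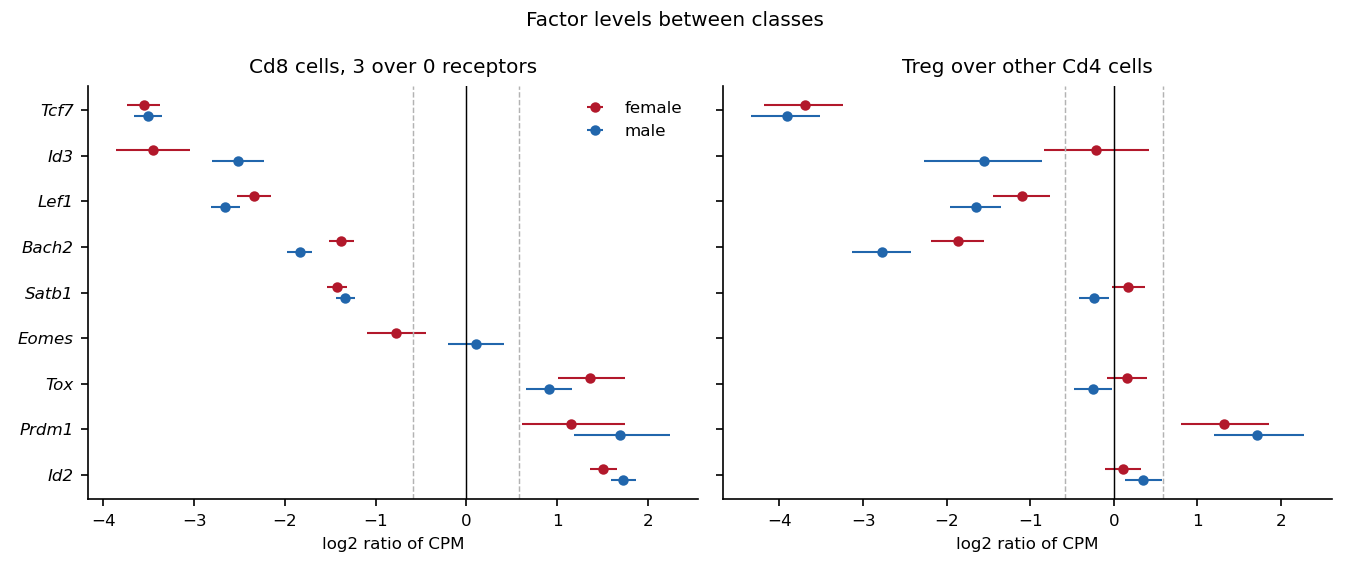
Log2 ratio of CPM (x axis) for each measured factor, for Cd8 cells with 3 over 0 detected receptors (left) and Treg over other Cd4 cells (right), in the female library (red) and the male library (blue); bars are 95% counting intervals and dashed lines mark 1.5-fold. In CPM 5 factors lie below the line at left in both libraries, of which Satb1 in both and Bach2 in the female library turn positive per cell, and Prdm1 is the only factor above the line in both libraries at right.

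Levels also differed by which receptors were detected, not only by how many. Tox was highest in cells with Pdcd1 and Lag3 but no Havcr2, at 117 CPM (108 to 127) in 412 female and 121 CPM (110 to 133) in 298 male cells. With Pdcd1 and Havcr2 but no Lag3 it was 30.9 CPM (18.3 to 48.9) in 68 female and 44.8 CPM (28.1 to 67.8) in 57 male cells, and with Havcr2 alone 19.3 CPM (8.84 to 36.7) and 41.5 CPM (24.2 to 66.4). The 2-receptor class is thus mostly cells with Pdcd1 and Lag3. Cells with all 3 receptors, at 84.8 and 99.5 CPM of Tox, lay between these groups.

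Id2 had the other pattern, with the higher values where Havcr2 was detected. With Havcr2 alone it stood at 382 CPM (328 to 443) in 58 female and 544 CPM (475 to 621) in 60 male cells, against 218 and 282 CPM with Pdcd1 alone. Cells with Pdcd1 and Lag3 had 265 and 239 CPM, and cells with Havcr2 and Lag3 had 603 and 509 CPM.

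Tcf7 was lower with Havcr2 than with another single receptor. Its level was 120 CPM (90.9 to 156) in female and 90.3 CPM (63.6 to 124) in male cells with Havcr2 alone, 198 and 265 CPM with Pdcd1 alone, and 214 and 200 CPM with Lag3 alone. Satb1, by contrast, was lower with Pdcd1, at 177 CPM (152 to 205) in female and 199 CPM (174 to 226) in male cells with Pdcd1 alone, against 327 CPM (288 to 369) and 324 CPM (285 to 366) with Lag3 alone. In the male library Satb1 was also low with Havcr2 alone, at 210 CPM (168 to 259), against 329 CPM (279 to 385) in the female library. Bach2 followed Tcf7, at 107 CPM (79.7 to 142) in female and 83.0 CPM (57.5 to 116) in male cells with Havcr2 alone, against 226 and 200 CPM with Pdcd1 alone. The median of these single-receptor groups ran from 5544.5 to 7393 UMIs, so they were closer in depth than the receptor numbers.

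**Figure D3:**
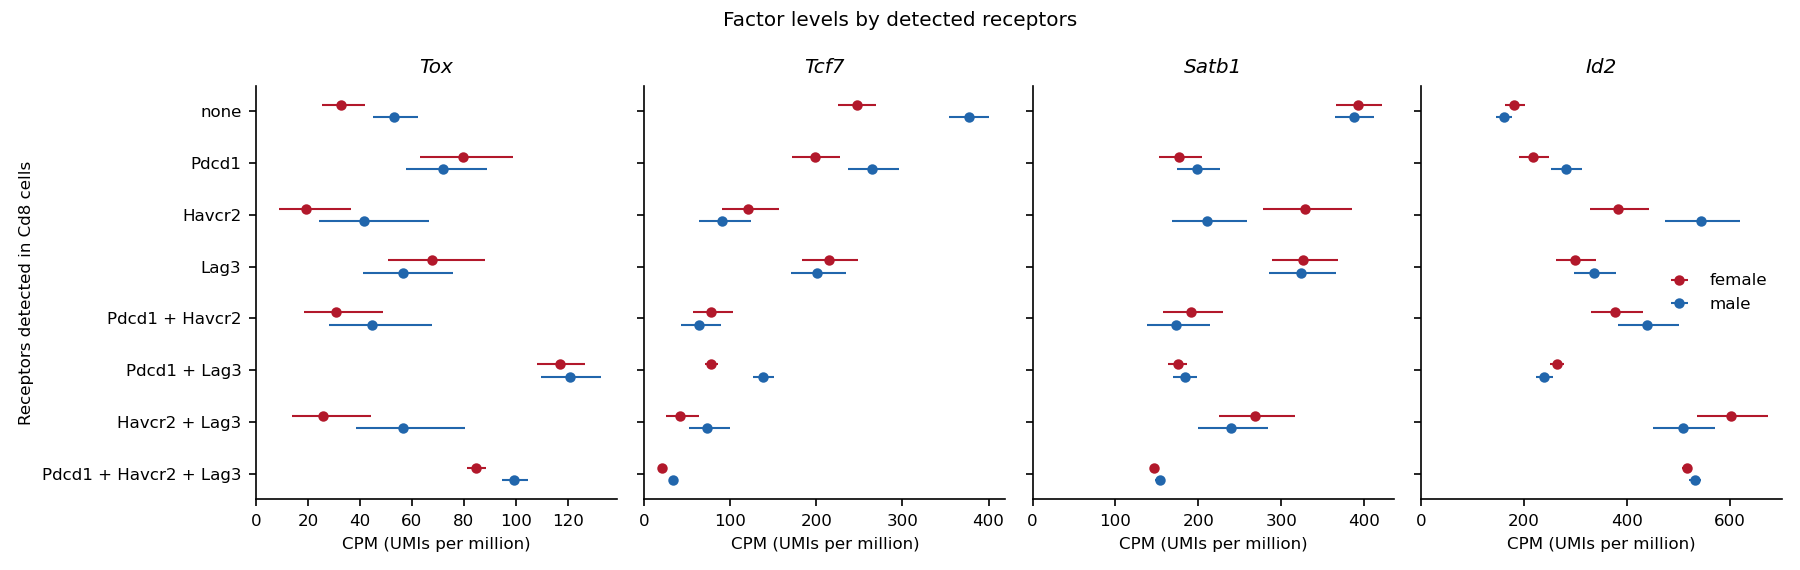
CPM (x axis) of Tox, Tcf7, Satb1 and Id2 in Cd8 cells grouped by which of Pdcd1, Havcr2 and Lag3 were detected (y axis), in the female library (red) and the male library (blue); bars are 95% counting intervals. Tox peaks with Pdcd1 and Lag3 at 117 CPM in female and 121 CPM in male cells, whereas Id2 is high in the groups with Havcr2.

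The share of cells with a UMI was compared after thinning each cell to 3730 UMIs and leaving out shallower cells, 34 to 50 of the cells with 0 and 14 to 24 of those with 3 receptors. Tcf7 was then detected in 5.24% of female cells with 3 receptors (3.99% to 6.75%) against 50.7% with 0 (44.6% to 56.8%), and in 7.52% (5.71% to 9.68%) against 67.0% (61.8% to 71.8%) of male cells. Without thinning the shares were 16.0% and 62.3% in female and 19.4% and 75.7% in male cells. The fall was thus one of cells with a transcript as well as of transcripts.
Id2 was detected in 78.2% (75.6% to 80.6%) of thinned female cells with 3 receptors against 33.5% with 0, and in 79.8% (76.7% to 82.7%) against 29.2% of male cells, and without thinning in 96.4% against 44.9% and 95.9% against 40.2%. For Satb1 the thinned shares were 39.1% against 62.5% in female and 39.6% against 68.2% in male cells. The unthinned Satb1 shares, 77.8% against 72.1% and 75.0% against 76.7%, show how far the greater depth of cells with 3 receptors moves such a share. The keratin-positive cells gave thinned shares of 0% and 2.34% for Tcf7, 3.04% and 3.18% for Id2 and 0% for Satb1. Id3, at 1.43% and 2.67% of thinned cells with 3 receptors, lay below its keratin-positive share of 11.0% and 15.5%.

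Members were also read in pairs, as the number of thinned Cd8 cells with UMIs of both over the number expected from their separate shares within each receptor number. Of 45 pairs, 35 had at least 5 expected cells in both libraries, 11 stood at 1.1 or above in both and 3 at 0.9 or below. Pairs of other genes were not computed, so these counts have no share over all genes beside them. They cannot be read as particular to the members. Tcf7 met Lef1 in 118 female cells for 95.2 expected (1.24) and in 202 male cells for 170 expected (1.19). With Bach2 the ratio for Tcf7 was 1.24 and 1.20, and with Id3 1.22 and 1.28. Tcf7 and Id2 met in 152 female cells for 204 expected (0.74) and in 189 male cells for 241 expected (0.78), and Tcf7 and Prdm1 in 14.8 for 22.0 (0.67) and 23.3 for 34.7 (0.67). The third such pair, Id3 and Eomes, rested on 7.34 and 9.48 cells. Tox went with Tcf7 (1.15 and 1.14), Bach2 (1.12 and 1.14) and Eomes (1.17 and 1.39). These ratios are small and the counts sparse, and with all UMIs in place of thinned ones none of the pairs stood at 0.9 or below in both libraries.

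**Figure D4:**
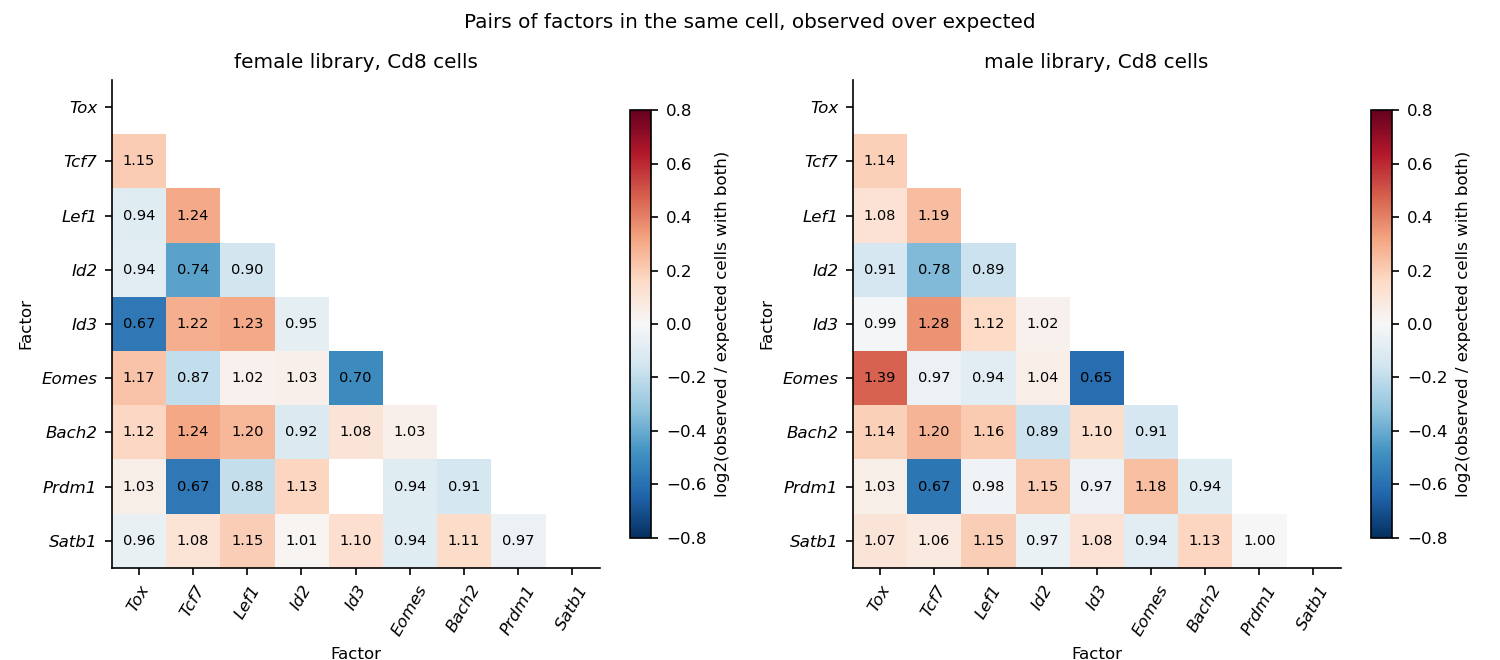
Observed over expected number of thinned Cd8 cells with UMIs of both factors (numbers in the squares, colour on a log2 scale) for each pair with enough expected cells, in the female library (left) and the male library (right); the expectation is set within each receptor number. Tcf7 pairs above 1 with Lef1, Bach2 and Id3 and below 1 with Id2 and Prdm1 in both libraries.

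Treg cells had far less Tcf7 and Bach2 and more Prdm1 than other Cd4 cells. The labelled classes carried their markers: Ikzf2, Il2ra and Ctla4 with Foxp3 summed, the rule gene Foxp3 included, to 3566 CPM in female and 3895 CPM in male Treg cells, and to 475 and 664 CPM in other Cd4 cells. Of 8 measured members 1 rose in Treg relative to other Cd4 cells, beside 10.9% of 7751 genes, and 3 fell, beside 5.99%. The median log2 ratio over the 8 members was -0.05 for the female and -0.90 for the male library, and 0.05 and 0.11 over all genes. Per cell, the median over all genes was 0.48 and 0.36, and the same 4 members moved in the same directions.

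Tcf7 stood at 21.5 CPM in female and 22.5 CPM in male Treg cells, against 279 and 340 CPM in other Cd4 cells. The log2 ratio was -3.70 (-4.19 to -3.24) for the female and -3.92 (-4.35 to -3.51) for the male library, which left Treg cells near the level of Cd8 cells with 3 receptors. Bach2 was at 56.9 and 34.8 CPM in Treg cells and at 207 and 237 CPM in other Cd4 cells, a ratio of -1.87 (-2.19 to -1.55) and -2.77 (-3.13 to -2.42). Lef1 had 57.4 and 58.5 CPM in Treg cells and 123 and 184 CPM in other Cd4 cells, with ratios of -1.10 (-1.44 to -0.76) and -1.66 (-1.96 to -1.35), but -0.41 in the female library when cells were thinned before the classes were set. In the same pools the keratins Krt8, Krt18 and Krt19 summed to 652 CPM in female and 11.0 CPM in male Treg cells, against 0 and 0.726 CPM in other Cd4 cells, and the macrophage markers to 195 and 7.78 CPM against 1.26 and 4.35 CPM. Other Cd4 cells also held foreign transcripts. Natural killer markers, Eomes among them, summed there to 194 and 7.98 CPM, against 39.4 and 22.9 CPM in Treg cells. Neutrophil markers summed to 0 and 160 CPM, against 0.998 and 0.409 CPM in Treg cells. The natural killer markers were not among those used below to leave out cells. Barcodes with another type's marker were 6.87% of female and 7.54% of male Treg cells, against 2.02% and 1.73% of other Cd4 cells, and cycling cells 12.4% and 9.28% against 3.23% and 2.16%. Without the marker-bearing cells Tcf7 gave -3.43 and -4.01, Bach2 -1.64 and -2.80, Lef1 -0.83 and -1.57, and Prdm1 1.34 and 1.62. Without the cycling cells Tcf7 gave -3.57 and -4.11, Bach2 -1.46 and -2.66, Lef1 -0.85 and -1.57, and Prdm1 1.46 and 1.61. The 4 directions were thus the same without either kind of cell. No Tcf7, Bach2 or Lef1 interval of a Treg pool met that of the other Cd4 pool of its library.

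Prdm1, used by effector Treg cells, had its highest CPM of the 6 classes in Treg cells. Per cell it was instead highest in Cd8 cells with 3 receptors, at 0.670 and 0.763 UMIs against 0.567 and 0.591 in Treg cells. In CPM Prdm1 stood at 65.9 (55.1 to 78.1) in female and 83.5 (72.4 to 95.8) in male Treg cells. Other Cd4 cells had 26.5 CPM (19.1 to 35.8) and 25.4 CPM (17.7 to 35.3). The ratio was 1.32 (0.80 to 1.85) for the female and 1.72 (1.19 to 2.28) for the male library. Bach2 and Prdm1 thus had opposite directions in Treg against other Cd4 cells as along the receptor series in CPM.

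The remaining members differed little or not in common between Treg and other Cd4 cells. Tox was at 175 and 163 CPM in Treg cells and 157 and 194 CPM in other Cd4 cells, with ratios of 0.15 and -0.25. Id2 had 214 and 226 CPM in Treg against 199 and 177 CPM in other Cd4 cells (0.10 and 0.35), and Satb1 253 and 257 CPM against 224 and 303 CPM (0.17 and -0.24). Id3 had 23.5 and 11.9 CPM in Treg cells and 27.1 and 34.8 CPM in other Cd4 cells, ratios of -0.21 (-0.84 to 0.42) and -1.55 (-2.27 to -0.86). Of the Treg Id3 UMIs, 1 cell held 29.8% of 47 for the female and 44.8% of 29 for the male library. Eomes had 1 and 2 UMIs in Treg cells and 8 and 3 UMIs in other Cd4 cells, too few for a ratio, beside 93 and 102 UMIs in Cd8 cells with 0 receptors.

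Set against Cd8 cells without receptors, other Cd4 cells had more Tox and Prdm1, beside 10.4% of 7454 genes, and less Id3 and Eomes, beside 3.39%. Other Cd4 cells were not chosen by receptors. They held Pdcd1 at 241 and 221 CPM, Lag3 at 99.0 and 203 CPM and Havcr2 at 13.2 and 26.1 CPM in the female and male libraries. Lineage and receptor detection thus cannot be told apart in this comparison. Tox had 157 and 194 CPM in other Cd4 cells and 32.9 and 53.1 CPM in Cd8 cells with 0 receptors, ratios of 2.25 (1.86 to 2.67) and 1.87 (1.57 to 2.17). Tcf7 was close in both, with ratios of 0.18 (-0.01 to 0.36) and -0.15 (-0.31 to 0.01). Eomes was lower by ratios of -3.20 (-4.45 to -2.16) and -4.08 (-6.38 to -2.49), on 8 and 3 UMIs.

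Against Cd8 cells with 3 receptors, Treg cells had more Tox, Prdm1 and Satb1 in CPM, beside 16.6% of 7913 genes. They had less Id2, Eomes and Bach2, beside 8.28%. The Tox ratios were 1.04 and 0.71 and the Prdm1 ratios 1.09 and 1.12. Id2 gave -1.27 (-1.41 to -1.13) and -1.23 (-1.36 to -1.11), and Tcf7 0.03 (-0.45 to 0.48) and -0.56 (-0.99 to -0.16). Tcf7 thus did not differ between these classes beyond counting error in the female library, whereas Id2 was lower in Treg cells of both libraries. Treg cells were likewise not chosen by receptors. These comparisons reuse pools of the ones above.

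In other Cd4 cells, pairs with Prdm1 were below expectation: Tcf7 with Prdm1 at 0.49 and 0.53 and Bach2 with Prdm1 at 0.58 and 0.31, on 2.12 to 5.15 cells. In Treg cells Tox and Bach2 met more often than expected, 23.0 cells for 13.8 (1.67) for the female and 13.1 for 8.92 (1.46) for the male library. Both rest on few cells.

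Genes that work with these factors were read as 4 lists. The lists were chosen with earlier results of these data known, so their counts beside all genes are a description only. Of 16 stem-like and naive genes, all measured, 12 fell and 1 rose in Cd8 cells with 3 over 0 receptors, with a median log2 ratio of -1.87 for the female and -1.57 for the male library. Over all measured genes 9.86% fell and 19.6% rose. Per cell, 6 fell and 4 rose, beside 0.845% and 92.8% of all genes, with medians of -0.15 and -0.04. Among the leading falls were Il6ra, an interleukin 6 receptor chain, at 2.21 and 3.41 CPM with 3 receptors against 33.9 and 46.6 CPM with 0, Cxcr5, a follicle-homing receptor, at 1.15 and 0.94 against 16.9 and 25.6 CPM, and S1pr1, the tissue-exit receptor, at 15.6 and 20.7 against 186 and 177 CPM. The 1 rise was the chemokine Xcl1, named after its values were seen, at 93.7 and 108 CPM against 29.4 and 54.5 CPM. The list thus moved with Tcf7 and Lef1 in CPM.

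Of 16 effector and exhaustion genes 9 rose and none fell, with medians of 1.65 and 2.16, beside the same 19.6% of all genes that rose. Per cell 15 rose, a share near the 92.8% of all genes. They were led by Rgs16, a regulator of G protein signalling, at 800 and 801 CPM with 3 receptors against 58.3 and 45.5 CPM with 0, Tnfrsf9 (4-1BB) at 837 and 762 against 104 and 65.0 CPM, Cd244a (2B4) at 16.9 and 19.0 against 1.99 and 2.89 CPM, and granzyme B, Gzmb, at 2471 and 2957 against 620 and 337 CPM. Of 10 effector factors only Zeb2 (ratios 1.18 and 1.41) and Bhlhe40 (1.21 and 1.53) rose and none fell, with medians of 0.04 and 0.77, a share near that of all genes in CPM, and likewise near it per cell, where all 10 rose. Among 17 partners and relatives 11 were measured. The co-repressors Tle1 (-1.89 and -1.62) and Tle4 (-1.21 and -1.34) fell, beside 9.86% of all genes that fell. So did Bach1 (-1.41 and -0.62) and Mafk (-1.65 and -1.50), a relative of Bach2 and its small Maf partner, and none rose. Per cell none of these partners and relatives fell, beside 0.845% of all genes, and 7 rose, beside 92.8%.

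Between Treg and other Cd4 cells the same lists split, beside 10.9% of all genes that rose and 5.99% that fell, or 24.2% and 3.10% per cell. Of 15 measured stem-like and naive genes 6 fell, led by Dapl1 (1 and 3 UMIs in Treg cells, 33 and 40 in other Cd4 cells), Klf3 and S1pr1, and 2 rose, among them the lymphotoxin gene Ltb, named after its values were seen, at 814 and 1131 CPM in Treg cells against 502 and 668 CPM in other Cd4 cells. Of 13 measured effector and exhaustion genes 5 rose and 2 fell, with Gzmb at 2876 and 2987 CPM in Treg cells against 177 and 261 CPM in other Cd4 cells, Tnfrsf9 at 1871 and 2071 against 378 and 409 CPM, Ctla4 (also on the Treg marker list) at 1552 and 1660 against 296 and 446 CPM, and Entpd1 (CD39) at 85.4 and 110 against 25.8 and 21.8 CPM. Of 10 effector factors Maf, Nfil3 and Ikzf3 rose, with ratios of 1.27 and 2.06, 1.65 and 1.47, and 0.92 and 1.48, and 2 fell, among them Bhlhe40 (-1.45 and -1.15). Of 10 measured partners Tle3 (-0.88 and -0.71) and Mafk (12.0 and 7.78 CPM in Treg against 24.0 and 25.4 CPM in other Cd4 cells) fell, and none rose. Per cell, 2 stem-like and naive genes rose and 5 fell, 5 effector and exhaustion genes rose and 1 fell, 3 effector factors rose and 2 fell, and 1 partner rose and none fell.

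Genes whose levels ran most like a member's were ranked by Pearson's r of log2(CPM + 10) over the 12 pools, among 6682 genes, as a description over pools that share a library or a class. The nearest to Tcf7 were Aff3 (0.99), Pdlim1 (0.98) and Erf (0.97). For Tox they were Adipor2 (0.97), Ei24 (0.96) and Ssh1 (0.96), for Eomes the cytotoxic protease Gzma (0.98), Dnajc15 (0.97) and the chemokine Ccl5 (0.97), and for Prdm1 Neb (0.97), Glipr1 (0.97) and Lrrfip2 (0.96). For Bach2 they were Pim2, Prdx6 and Arid5a (0.96 each), for Lef1 Slc49a4 (0.98), Ttyh3 (0.97) and Kif1b (0.97), and for Satb1 Tcp11l2 (0.96) and Nr1d2 (0.95). Id2 was nearest to Filip1 (0.95), Rgs8 (0.94) and Galnt3 (0.94), Id3 to H2-Ke6 (0.94), Dnajb1 (0.92) and Ssbp2 (0.92), and Tox2 to Fes (0.91), Klk1 (0.89) and Znfx1 (0.88). Tox2 lay below the 20 CPM in 1 pool asked of the ranked genes, so its likeness rests on few UMIs. Its highest pool, female other Cd4 cells, had 8.20 CPM on 13 UMIs, of which 1 cell held 38.5%. Among the members themselves r was 0.92 for Tcf7 with Bach2, 0.90 for Lef1 with Id3, 0.83 for Tcf7 with Lef1, -0.90 for Bach2 with Prdm1 and -0.87 for Id2 with Satb1 and for Tox with Eomes. The Treg and other Cd4 pools had Eomes at 0.499 to 5.04 CPM, on 1 to 8 UMIs, and Tox at 157 to 194 CPM. Every Cd8 pool had at least 27.1 CPM of Eomes and at most 105 CPM of Tox. The r of Tox with Eomes thus sets Treg and other Cd4 pools against Cd8 pools.

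The female library had less Tcf7 and Id3 than the male library in most Cd8 classes. Tcf7 was lower by at least 1.5-fold with 0, 2 and 3 receptors, at log2 ratios of female over male of -0.61 (-0.77 to -0.46), -0.72 (-0.89 to -0.54) and -0.66 (-0.84 to -0.48), and stood at -0.19 (-0.37 to 0.00) with 1. Id3 was lower with 1, 2 and 3 receptors, at -0.68 (-1.18 to -0.20), -1.60 (-2.10 to -1.12) and -1.51 (-1.87 to -1.17), and stood at -0.58 with 0. Beside them Tox (-0.69, -1.13 to -0.26) and Lef1 (-0.59, -0.78 to -0.40) were lower with 0 receptors and Prdm1 (-0.72, -1.40 to -0.07) with 1. Members lower by that size were 3 with 0 receptors, beside 4.82% of 7450 genes, 2 with 1, beside 4.21% of 7745, 2 with 2, beside 2.74% of 7782, and 2 with 3 receptors, beside 1.16% of 7655. None was higher in a Cd8 class, beside 7.48%, 5.41%, 1.85% and 0.509%.

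The Tcf7 difference with 3 receptors, 21.0 CPM in 1088 female against 33.2 CPM in 752 male cells, was -0.58 when each cell had equal weight, just short of 1.5-fold. Without the cycling cells, the cells with another type's markers or the deepest barcodes, Id3 in that class gave -1.20, -1.23 and -1.36, but it was 0.71 on 14 and 7 UMIs when cells were thinned before the classes were set. Eomes, with 3 receptors, was at -0.54 (-0.71 to -0.38) and Bach2 at 0.37 (0.27 to 0.47), both short of 1.5-fold. Satb1 and Id2 differed by -0.07 and -0.04 in that class.

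In Treg cells 2 members were higher in the female library, beside 7.30% of 8122 genes, and none lower, beside 6.37%. Bach2 stood at 56.9 CPM in female and 34.8 CPM in male Treg cells, a ratio of 0.71 (0.29 to 1.13). Id3 stood at 23.5 CPM in female and 11.9 CPM in male Treg cells, a ratio of 0.98 (0.29 to 1.70). These are the pools with 652 CPM of keratins in female and 11.0 CPM in male Treg cells. Without barcodes that carried a marker of another cell type the Id3 ratio was -0.60, without the deepest barcodes -0.069 and without cycling cells 0.19. In other Cd4 cells none of 8 measured members was past 1.5-fold in either direction, beside 8.05% higher and 7.68% lower of 7921 genes, with Lef1 nearest at -0.58 (-0.86 to -0.31).

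**Figure D5:**
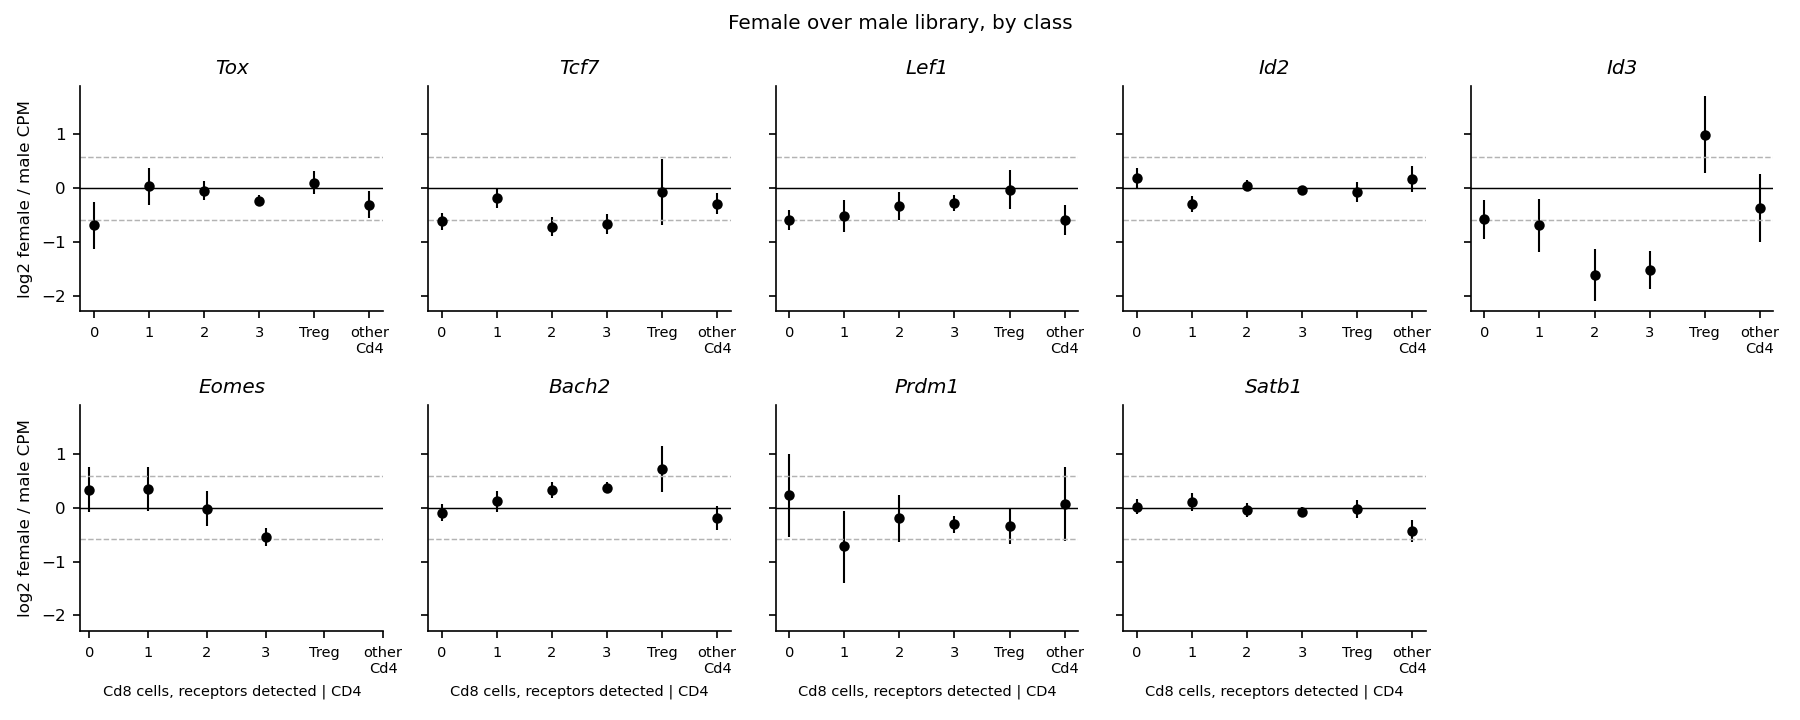
Log2 ratio of female over male CPM (y axis) for each measured factor in Cd8 cells with 0, 1, 2 and 3 detected receptors, Treg cells and other Cd4 cells (x axis); bars are 95% counting intervals, dashed lines mark 1.5-fold, and classes too low to measure have no point. Tcf7 lies below 0 in the 4 Cd8 classes, and Id3 lies at -1.51 with 3 receptors and at 0.98 in Treg cells.

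The classes rest on small UMI numbers, so the cells just outside and just inside the Cd8 minimum are given as well. Cells with 1 Cd8 UMI, 102 female and 153 male with a median of 3106.5 and 2801 UMIs, had Bach2 at 353 and 350 CPM and Tcf7 at 141 and 241 CPM. Cells with 2 Cd8 UMIs, 99 and 110 with a median of 3752 and 3153 UMIs, had Bach2 at 333 and 337 CPM and Tcf7 at 209 and 278 CPM. Satb1 was at 270 CPM (223 to 326) in female and 360 CPM (313 to 413) in male cells with 1 Cd8 UMI, and at 391 CPM (332 to 458) and 418 CPM (359 to 485) with 2, so the female intervals did not meet. Tox was at 105 and 131 CPM with 1 and at 149 and 78.4 CPM with 2, in opposite directions in the libraries. Cells with 3 or more, 2146 and 1830 with 10845 and 9243 UMIs, had Bach2 at 125 and 115 CPM and Tcf7 at 53.6 and 103 CPM.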

How the data were processed

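Droplet single-cell RNA was counted in 1 female and 1 male library. The deposited files are whole UMI counts of each gene in each barcode. Per the file headers, they come from Cell Ranger 7.0.1. The submitters' processing notes list GRCm38 and Seurat 5 without saying how they were used. All else was computed with Python 3.11.15, numpy 2.4.6, scipy 1.17.1, pandas 2.3.3 and matplotlib 3.10.9. Kept barcodes had 500 genes or more and 10% mitochondrial UMIs or less, and no doublet caller was run. UMIs were summed per class and library, scaled to CPM and compared as log2 ratios. Intervals are exact (Poisson for levels and ratios, Clopper-Pearson for shares), and droplet counts of 1 library give no test. Genes count as measured from 10 CPM in 1 compared pool and 20 UMIs over both. Shares and pairs use the exact mean over all thinning draws to 3730 UMIs, the 10th percentile. Of the gene identifiers, 99.6% matched GENCODE M21 (GRCm38), and promoters are RefSeq's (GRCm38.p6). Up to 4 genes per list, the largest ratios past the fold in both libraries, and 3 genes per member by likeness were named by rule, of which 2 are not reported here. Members and lists were chosen with earlier results of these data known. The steps were tested on simulated data. Alternatives were TMM scaling (edgeR 4.0.16 in R 4.3.3), stricter or no filters, equal cell weights, and leaving out deep, cycling or marker-bearing cells. UMIs per cell and leaving out the cell with most UMIs of a gene were added after seeing the data.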

Additional observations from a re-analysis of the deposited data

Results flagged for a closer look

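The comparisons below went opposite ways in the libraries or in classes, and no difference between them was tested, since each side is 1 library. Eomes with 3 over 0 receptors had a log2 ratio of -0.77 for the female and 0.10 for the male library. Between Treg and other Cd4 cells, Tox had 0.15 for the female and -0.25 for the male library, and Satb1 had 0.17 and -0.24. Of female over male, Tox had -0.23 in Cd8 cells with 3 receptors and 0.10 in Treg cells, and Id3 had -1.51 in Cd8 cells with 3 receptors and 0.98 in Treg cells.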

How the results depend on the processing

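Of 826 recomputed values of the members' ratios, 707 moved by less than the counting interval, 111 moved by more and 8 changed sign from a called value. Per cell in place of CPM, the ratio of 3 over 0 receptors was 0.94 for Eomes and 0.34 for Bach2 in the female library, and 0.29 for the female and 0.20 for the male library for Satb1, and 4 members rose in place of 3 and 3 fell in place of 5. Id3 of female over male was 0.71 in Cd8 cells with 3 receptors when cells were thinned first, and in Treg cells -0.069 without the deepest barcodes, -0.60 without cells with other markers and -0.025 when thinned first. For these sign changes the cause was not tested. Over all genes, rises with 3 receptors numbered 1508, and 2317 with no minimum, 974 thinned first, 699 at 2-fold and 7141 per cell. Falls numbered 759, and 5024, 369 and 65 with no minimum, at 2-fold and per cell. Between Treg and other Cd4 cells 843 genes rose, and 1605, 380 and 1873 under those settings, and 464 fell, and 1434, 216 and 240. With no minimum, 5 members fell there in place of 3. Of female over male, 2 pairs of member and class were higher, and 6 with no minimum, 1 without the deepest barcodes, 1 without cells with other markers, 1 without cycling cells and 0 at 2-fold. The 9 lower pairs were 2 at 2-fold. Without thinning, 3 members in place of 5 had a lower share of cells with 3 receptors, 17 pairs of members in place of 11 stood above expectation and 0 in place of 3 below. Tox2, Eomes outside Cd8 cells and Id3 in thinned cells are limited by depth. No paired analysis was possible because each sex has 1 library and no result comes from a test.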
